A study of Mus musculus with 2 samples.

Results

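Cholesterol synthesis and its control by the sterol regulatory element-binding proteins (SREBPs) were followed in single cells of the mouse retina through 8 genes of the 32285 counted. These were Insig1, Hmgcs1, Idi1, Fdps, Fdft1, Sqle, Cyp51 and Srebf2. The genes were chosen on their measured light damage to control ratios in the retinal pigment epithelium (RPE), where Insig1 was picked for its fall. Their values in that comparison are therefore descriptions of the selected genes and not independent findings.

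Cells make cholesterol from acetyl-CoA. Hmgcs1 makes HMG-CoA at the start of the mevalonate pathway, Idi1 isomerises isopentenyl diphosphate, Fdps makes farnesyl diphosphate, Fdft1 joins farnesyl units to squalene, Sqle oxidises squalene and Cyp51 demethylates lanosterol. Srebf2 encodes SREBP-2, the transcription factor that switches these enzymes on when sterols are low. Insig1 encodes the endoplasmic reticulum protein that holds the SREBP escort protein SCAP back when sterols are plentiful, and it is itself an SREBP target. In the eye, the RPE takes up lipids from the blood and from shed outer segments of photoreceptors, and Müller glia are the main glial cells of the retina.

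SREBP-2 acts through sterol regulatory elements, usually near CCAAT boxes bound by NF-Y and GC boxes bound by Sp1. RefSeq promoter entries (GRCm38.p6) were matched for 5 of the 8 genes and not for Sqle, Fdps and Fdft1. The 250 bases before the RefSeq start are given 5′ to 3′ on the gene's strand for Insig1, Hmgcs1, Srebf2 and Cyp51. Insig1 had the largest fall of the 8 genes in the RPE, and the others carry an element like a sterol regulatory element. Capitals mark every match on either strand to TCACNCCA or TCACCNCA (elements like a sterol regulatory element, with TCACCCCA matching both), CCAAT or GGGCGG.
Insig1, chr5:28071162-28071411, plus strand: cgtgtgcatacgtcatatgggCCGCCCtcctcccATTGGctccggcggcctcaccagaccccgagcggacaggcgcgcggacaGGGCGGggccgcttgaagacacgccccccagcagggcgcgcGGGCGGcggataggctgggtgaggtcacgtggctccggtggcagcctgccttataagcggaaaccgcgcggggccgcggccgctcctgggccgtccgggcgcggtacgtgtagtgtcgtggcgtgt
Hmgcs1, chr13:119690101-119690350, plus strand: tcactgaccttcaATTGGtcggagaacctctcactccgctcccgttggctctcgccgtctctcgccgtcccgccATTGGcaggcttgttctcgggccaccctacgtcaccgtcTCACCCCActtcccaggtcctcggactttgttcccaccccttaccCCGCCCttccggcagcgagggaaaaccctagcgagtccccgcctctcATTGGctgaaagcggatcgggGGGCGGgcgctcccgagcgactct
Srebf2, chr15:82147019-82147268, plus strand: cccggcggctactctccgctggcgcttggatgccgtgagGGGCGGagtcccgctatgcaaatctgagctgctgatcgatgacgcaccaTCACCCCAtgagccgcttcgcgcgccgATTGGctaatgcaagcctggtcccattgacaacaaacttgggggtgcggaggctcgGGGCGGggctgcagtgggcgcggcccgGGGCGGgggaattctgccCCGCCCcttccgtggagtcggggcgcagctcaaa
Cyp51, chr5:4104698-4104947, minus strand: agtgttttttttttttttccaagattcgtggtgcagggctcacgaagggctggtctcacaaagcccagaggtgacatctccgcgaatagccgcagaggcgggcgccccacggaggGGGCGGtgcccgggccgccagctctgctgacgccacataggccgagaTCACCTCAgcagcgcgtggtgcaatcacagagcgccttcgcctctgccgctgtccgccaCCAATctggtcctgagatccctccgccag
TCACNCCA stood in the Hmgcs1 window 137 bases and in the Srebf2 window 162 bases before the start, and 3.67% of all 32851 promoter windows of this length held it. TCACCNCA stood in the same 2 places and in the Cyp51 window 88 bases before the start, against 3.61% of all windows. All 5 matched genes had a CCAAT box (33.8% of all windows) and a GC box (32.7% of all windows). Insig1 and Idi1 held neither of the elements like a sterol regulatory element in these windows, which says only that these letters are absent from 250 bases. The gene coordinates given further on are those of GENCODE, whose starts differ from the RefSeq starts. The windows of Insig1, Idi1, Srebf2 and Cyp51 therefore reach into the gene as GENCODE draws it.

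Control retinae came from mice kept in complete darkness for 18 h, and light damage retinae from mice that then received 5000 lx of white light for 30 min and were killed after 6 h of recovery in dim light. All mice were 6 to 9 weeks old, carried both Tgfbr2 alleles floxed and no stated Cre (genotype label WT), were on a Balb-C/CD1 background and had the L450 form of RPE65 on both alleles, with both sexes included. Retinae of 3 to 5 mice were pooled and dead cells were removed on magnetic beads. Each condition is 1 single-cell library, which allows no test between conditions. The 95% intervals cover counting error only and hold no variation among mice or libraries.

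The control and light damage libraries held 30605284 and 54413601 unique molecular identifiers (UMIs, counts of distinct RNA molecules), of which 18.7% and 32.7% were unspliced, and 3669 and 5593 droplets were kept. Barcodes shared by both libraries accounted for 7 kept droplets per library. Clusters were named from marker genes, and 5 classes were compared: RPE-like (157 control and 278 light damage droplets), Müller-like (53 and 43), cone-like (176 and 94), and rods with under 25% unspliced UMIs (2424 and 1798) or more (765 and 3128), called low-unspliced and high-unspliced rods. Levels are spliced plus ambiguous UMIs of a gene scaled to a class total of 1000000 (CPM). Unspliced UMIs of a gene, and their ratios, are instead scaled to 1000000 UMIs of the class with unspliced ones included. A gene with at least 20 UMIs over both libraries entered a comparison, and a change of at least 2-fold was counted.

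The RPE label held, since 9 and 10 of its 10 markers were detected in the control and light damage RPE-like droplets, with Best1 at 0 in the control. The marker list summed to 92558 and 80530 CPM. Rod markers summed to 8652 CPM in the control and 2944 CPM in light damage, and microglial markers to 149 and 107 CPM with C1qa, Cx3cr1, P2ry12 and Aif1 at 0 in both. The list of Müller markers summed to 15896 and 17823 CPM in RPE-like droplets, with Aqp4, Kcnj10 and Abca8a at 0 in both libraries, and to 20527 and 13970 CPM in the Müller-like class. Median depth was 2662 UMIs per control and 6553.5 per light damage droplet, and free RNA made up an estimated 8.54% and 3.74% of their UMIs. The labelled tissue is dissected retina, so these are RPE cells that came along with it. The ratios were rerun with droplets thinned to 1000 UMIs and with expected free RNA subtracted, where Insig1 had log2 ratios of -2.82 and -2.91. Beyond such reruns, whether the differences in depth, free RNA or rod RNA take part in the ratios was not tested.

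In RPE-like droplets all 8 genes were lower after light damage, and 4 of them (Insig1, Sqle, Fdps and Hmgcs1) by at least 2-fold. Their median log2 ratio was -0.76, against 0.03 for the 8816 genes compared. Of these, 7.19% were at least 2-fold lower and 12.8% at least 2-fold higher, beside 4 and 0 of the 8 genes, and nothing is read from that since the genes were chosen on this contrast.

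Insig1, the sterol-sensing brake (chromosome 5, bases 28071363 to 28078662, plus strand of GRCm38), was counted with 91 UMIs in the control and 43 in light damage. Its level was 132 CPM (106 to 162) in the control RPE and 18.6 CPM (13.5 to 25.1) in the light damage RPE, which is 7.07-fold lower, with a log2 ratio of -2.82 (-3.38 to -2.28). The intervals lay far apart, and no droplet held more than 6 of its UMIs. Ordered by the interval's end nearest 0, Insig1 stood at rank 5 of the falls, behind Gpr139, Rncr4, 3010001F23Rik and the rod gene Pde6g. Free RNA held Insig1 at 15.1 and 14.1 CPM and accounted for an expected 0.89 of the 91 and 1.22 of the 43 UMIs. Insig2, the paralog with the same sterol-dependent function, stood at 40.5 CPM in the control and 49.0 CPM in light damage, with a log2 ratio of 0.27 (-0.33 to 0.93).

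Among the enzymes of the mevalonate part, Hmgcs1 (chromosome 13, bases 119690379 to 119708260, plus strand) was at 146 CPM (119 to 178) in the control and 71.1 CPM (60.6 to 82.8) in light damage, 2.06-fold lower (log2 ratio -1.04, -1.41 to -0.67). Fdps (chromosome 3, bases 89093588 to 89101959, minus strand) was at 73.8 CPM (55.0 to 97.1) and 34.7 CPM (27.5 to 43.2), 2.13-fold lower (log2 ratio -1.09, -1.61 to -0.55). For both genes the intervals of the libraries did not overlap. Fdps is the one gene of the 8 that free RNA held at a higher level than the RPE did, at 85.8 and 82.3 CPM, and free RNA accounted for an expected 5.06 of its 51 and 7.10 of its 80 UMIs. Idi1 (chromosome 13, bases 8885501 to 8892451, plus strand) was at 75.3 CPM (56.2 to 98.7) and 54.2 CPM (45.1 to 64.6), with a log2 ratio of -0.47 whose interval, -0.95 to 0.02, held 0.

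Of the enzymes from squalene onwards, Sqle (chromosome 15, bases 59315077 to 59331192, plus strand) was at 53.6 CPM (37.7 to 73.8) in the control and 22.1 CPM (16.5 to 29.1) in light damage, 2.42-fold lower (log2 ratio -1.28, -1.92 to -0.63). Fdft1 (chromosome 14, bases 63145150 to 63179578, minus strand) was at 138 CPM (111 to 168) and 124 CPM (110.02 to 139), with a log2 ratio of -0.15 (-0.49 to 0.20). Cyp51 (chromosome 5, bases 4081145 to 4104746, minus strand) was at 88.3 CPM (67.6 to 113) and 68.1 CPM (57.8 to 79.6), with a log2 ratio of -0.38 (-0.81 to 0.08). Sqle alone of these had an interval that excluded 0. Summed over the 6 enzymes, the level was 575 CPM (520 to 634) in the control and 374 CPM (350 to 400) in light damage, 1.54-fold lower (log2 ratio -0.62, -0.79 to -0.44).

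Srebf2, the transcription factor itself (chromosome 15, bases 82147181 to 82205379, plus strand), was at 92.7 CPM (71.4 to 118) in the control RPE and 71.5 CPM (61.0 to 83.3) in the light damage RPE. The log2 ratio was -0.37 (-0.80 to 0.07), so a fall was not detectable at this depth. Unspliced RNA of the 8 genes was close to absent in the RPE: 4 unspliced UMIs in the control and 7 in light damage in all, 4 and 3 of them from Srebf2, while 4.76% and 4.78% of all UMIs of these droplets were unspliced. Insig1 had 0 unspliced UMIs in both libraries, so no unspliced ratio could be given. The exact upper limits were 5.09 in the control and 1.52 in light damage per 1000000 UMIs of the class, unspliced ones included.

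**Figure D1:**
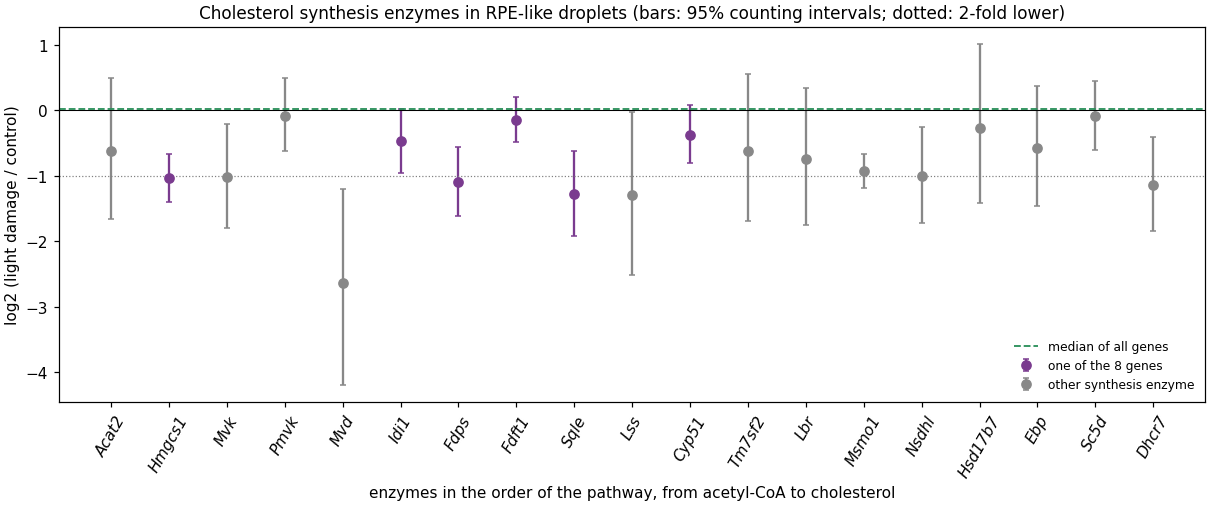
Log2 ratio of light damage to control CPM (y axis) in RPE-like droplets for 19 enzymes in the order in which they act (x axis), with 95% counting intervals as bars, the dashed line at the median of all genes and the dotted line at a 2-fold fall. All 19 points lie below 0, and 8 lie at or below the dotted line, with Mvd lowest at -2.63.

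Lower levels were not limited to the chosen enzymes. All 15 other enzymes of cholesterol synthesis were lower in the light damage RPE, with a median log2 ratio of -0.74 against 0.03 for all genes. By at least 2-fold, 6 of them were lower, among them Mvd, Lss, Dhcr7, Mvk and Nsdhl, beside 7.19% of all genes. Msmo1, a sterol C4 methyl oxidase and the most abundant of the 15 in UMIs, went from 269 to 141 CPM (log2 ratio -0.93, -1.19 to -0.66). Mvd, which makes isopentenyl diphosphate, had a log2 ratio of -2.63 (-4.2 to -1.20) from only 13 and 7 UMIs. Dhcr7, which makes the last double-bond reduction to cholesterol in one branch, had a log2 ratio of -1.14 (-1.85 to -0.41). These 15 genes were listed with earlier results of the same libraries known.

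**Figure D2:**
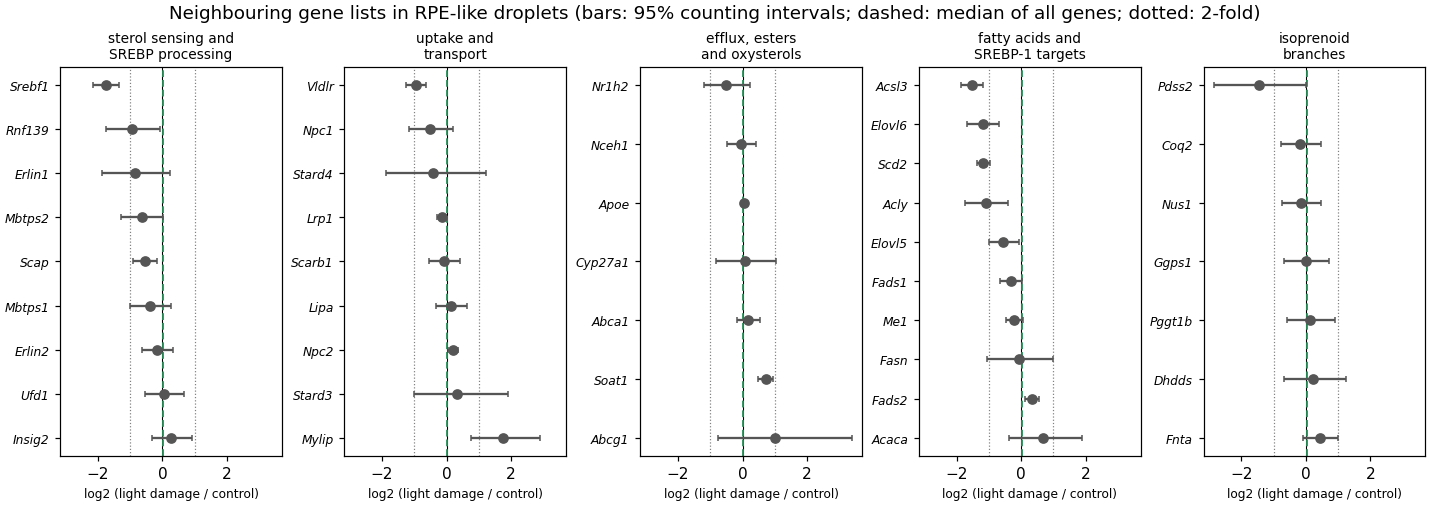
Log2 ratio of light damage to control CPM (x axis) in RPE-like droplets for genes of 5 further lists with at least 20 UMIs (y axis), with 95% counting intervals, the dashed line at the median of all genes and dotted lines at 2-fold. Srebf1, Vldlr and Acsl3 are the lowest genes shown in the sensing, uptake and fatty acid panels, and Mylip is the highest in the uptake panel.

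Of 11 genes of sterol sensing and SREBP processing, 9 were below 0, with a median log2 ratio of -0.51 against 0.03 for all genes. Only 1 of the 11 was at least 2-fold lower, near the 7.19% of all genes. That gene was Srebf1, which encodes the fatty acid regulator SREBP-1 and went from 162 to 48.1 CPM (log2 ratio -1.75, -2.14 to -1.36). Scap, the SREBP escort, had a log2 ratio of -0.54 (-0.91 to -0.15). In the list of 12 fatty acid synthesis genes and SREBP-1 targets, 4 of 10 compared were at least 2-fold lower (Acly, Acsl3, Elovl6 and Scd2), beside 7.19% of all genes. The median of that list was -0.44. Acsl3, an acyl-CoA synthetase, had a log2 ratio of -1.52 (-1.85 to -1.18), Elovl6, a fatty acid elongase, -1.18 (-1.67 to -0.68) and the desaturase gene Scd2 -1.17 (-1.36 to -0.98).

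In the uptake list, 1 of 10 genes compared was at least 2-fold lower and 1 at least 2-fold higher, and the median was -0.12. Of all genes compared in the RPE, 7.19% were lower and 12.8% higher by that much. No result is therefore read from the 2-fold counts of the 3 lists in this paragraph. Mylip, a ubiquitin ligase that degrades lipoprotein receptors, went from 13.03 to 43.3 CPM on 9 and 100 UMIs (log2 ratio 1.73, 0.75 to 2.90), while free RNA held it at 36.5 and 65.0 CPM. Its unspliced UMIs went the other way, on 31 and 57 UMIs (log2 ratio -0.86, -1.52 to -0.18). Vldlr, the VLDL receptor, had a log2 ratio of -0.95 (-1.24 to -0.65), at 216 and 112 CPM beside 213 and 165 CPM in free RNA. In the list of efflux, esters and oxysterols, 0 of 7 compared were 2-fold lower or higher, with a median of 0.07. There Soat1, which esterifies cholesterol, had a log2 ratio of 0.71 (0.49 to 0.94), and Apoe, which carries lipids out of cells, one of 0.03 (-0.01 to 0.07) at 8787 and 8988 CPM. In the isoprenoid branches, which leave the pathway after farnesyl diphosphate, 1 of 7 compared was at least 2-fold lower (Pdss2) and the median was -0.003.

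Droplets of the light damage library were deeper, so each RPE-like droplet was thinned to 1000 UMIs. Insig1 was then found in 12.7% (7.96 to 19.0) of 157 control and 2.16% (0.796 to 4.64) of 278 light damage droplets, where low-unspliced rods held it in 0.248% of 2424 and 0.723% of 1798. Before thinning, 35.7% and 11.5% of RPE-like droplets had an Insig1 UMI. Fdps was found in 9.55% and 2.88%, Sqle in 6.37% and 1.80%, and Hmgcs1 in 13.4% and 6.83% of the thinned droplets. Fdft1 (10.8% and 9.35%) and Cyp51 (9.55% and 8.27%) had nearly the same share in both libraries. For Srebf2 the share was 4.46% and 6.83%, against the direction of its CPM, so no order is read from either.

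**Figure D3:**
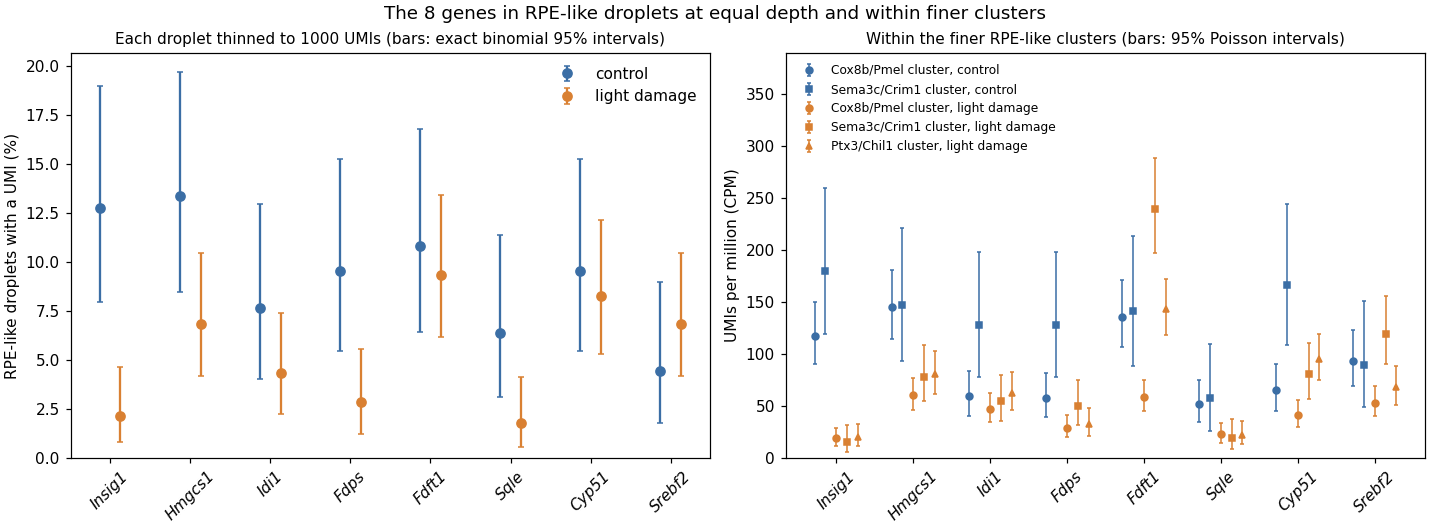
Left, share of RPE-like droplets with a UMI of each gene (y axis, percent) in the control and light damage libraries after thinning to 1000 UMIs, with exact binomial 95% intervals, and right, CPM of each gene (y axis) in 3 finer RPE-like clusters by library with 95% Poisson intervals. Insig1 is lower in every light damage cluster than in either control cluster, while Fdft1 is lower in one and higher in the other.

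A finer clustering, in which droplets were named anew and the RPE-like droplets are therefore not exactly the same ones, gave 3 RPE-like clusters: one led by Cox8b and Pmel (117 control and 124 light damage droplets), one led by Sema3c and Crim1 (41 and 83), and one led by Ptx3 and Chil1, which held 71 light damage droplets and 0 of the control and may be a feature of that library. Insig1 was lower after light damage in both clusters that could be compared, from 117 to 19.0 CPM in the first (log2 ratio -2.63, -3.43 to -1.88) and from 180 to 15.3 CPM in the second (log2 ratio -3.56, -5.00 to -2.33). The cluster without control droplets held it at 20.1 CPM (11.5 to 32.7), inside the intervals of the other light damage clusters. The 6 enzymes together had log2 ratios of -0.98 (-1.23 to -0.74) and -0.56 (-0.88 to -0.23) in these clusters.

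Fdft1 had ratios of opposite sign in the finer clusters. Its level was nearly the same in both control clusters, at 136 CPM (107 to 171) and 141 CPM (88.6 to 214). After light damage it was 58.8 CPM (45.1 to 75.4) in the cluster led by Cox8b and Pmel and 240 CPM (197 to 289) in the cluster led by Sema3c and Crim1, with log2 ratios of -1.21 (-1.72 to -0.70) and 0.76 (0.09 to 1.49). The cluster led by Ptx3 and Chil1 held Fdft1 at 143.5 CPM (118 to 172), between the other light damage clusters. Srebf2 had log2 ratios of -0.81 (-1.39 to -0.23) and 0.41 (-0.45 to 1.38) in the same order, so its interval excluded 0 in the first alone. Fdft1 overlaps Ctsb on the opposite strand, and the authors kept only reads of the sense strand. Whether these differences between finer clusters exceed the spread between mice was not tested.

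**Figure D4:**
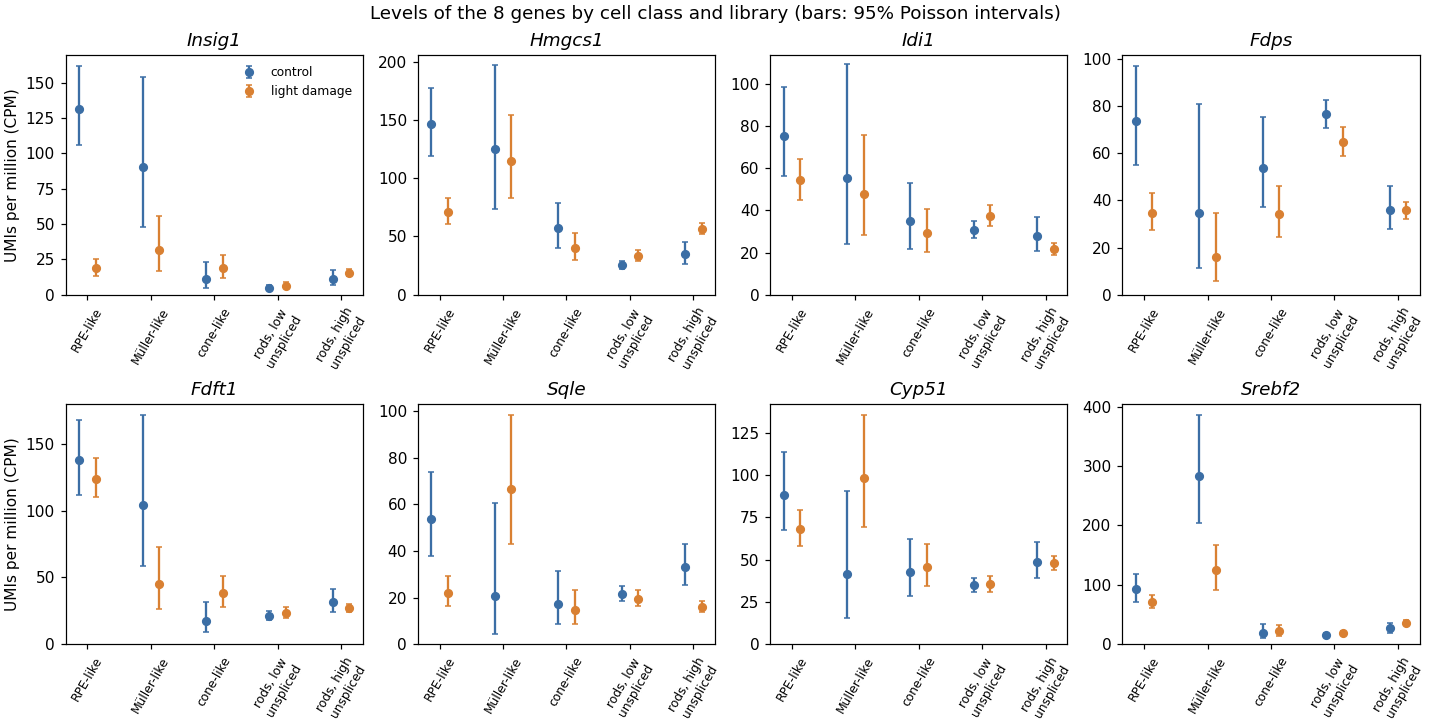
Levels of the 8 genes (y axis, CPM) in 5 cell classes (x axis) for the control (blue) and light damage (orange) libraries, with 95% Poisson intervals as bars. In the control, RPE-like droplets have the highest level of 6 of the 8 genes, with bars that overlap those of Müller-like droplets. Insig1 in light damage RPE lies at the level of cone-like droplets.

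Across the control retina, RPE-like droplets had the highest level of 6 of the 8 genes, Müller-like droplets that of Srebf2 (284 CPM, 204 to 385) and low-unspliced rods that of Fdps (76.4 CPM, 70.5 to 82.7, overlapping the RPE). For none of those 6 genes was the RPE separated from Müller-like droplets, since each interval of that ratio held 0. The Müller-like levels of these 6 genes rest on 3 (Sqle) to 18 (Hmgcs1) UMIs. For Insig1 the order was RPE-like (132 CPM), Müller-like (90.1 CPM), high-unspliced rods (11.4 CPM), cone-like (11.1 CPM) and low-unspliced rods (4.82 CPM). RPE-like and Müller-like droplets overlapped in their intervals, as did neighbours among the photoreceptor classes, and a gap separated the former from the latter. In the control the RPE level of Insig1 was 27.3-fold that of low-unspliced rods, and in light damage it was 2.89-fold. After light damage, Müller-like droplets came first (32.0 CPM, 16.5 to 55.8), followed by cone-like droplets (18.7 CPM), RPE-like droplets (18.6 CPM), high-unspliced rods (15.4 CPM) and low-unspliced rods (6.45 CPM). Only the last class was separated from the one above it.

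**Figure D5:**
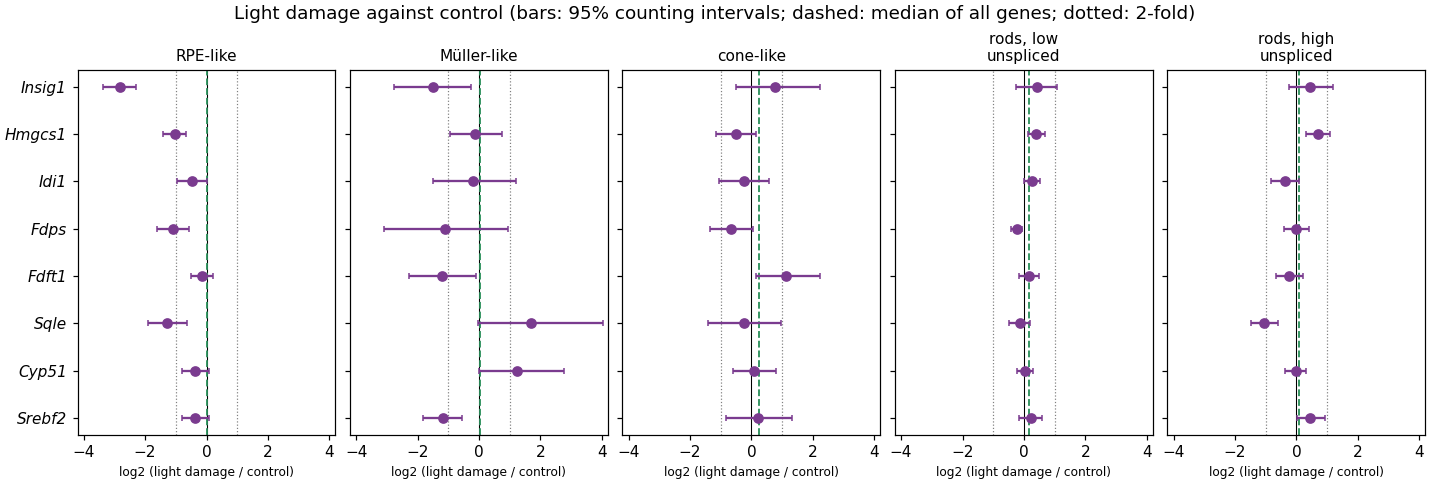
Log2 ratio of light damage to control CPM (x axis) for the 8 genes (y axis) in 5 cell classes, with 95% counting intervals, the dashed line at the median of all genes of the class and dotted lines at 2-fold. In RPE-like droplets all 8 points lie left of 0, and in the rod classes only Sqle in high-unspliced rods passes a 2-fold line.

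Müller-like droplets were few, and light damage droplets came mostly from another cluster than control ones. All 53 control droplets belonged to a cluster led by Aqp4 and Abca8a, whereas 26 of 43 in light damage belonged to one led by Cp, Tnfaip6 and Adamts1. Free RNA made up an estimated 25.3% and 10.3% of UMIs, and median depth was 2475 and 14934 UMIs. All 10 Müller markers were detected in both libraries, but the Müller list summed to 20527 and 13970 CPM beside 27094 and 9503 CPM for rod markers and 1476 and 1713 CPM for endothelial markers. The marker score of the cluster led by Aqp4, which has Rgs5 and the endothelial marker Flt1 among its leading genes, was 0.505, just past the limit of 0.5. Beyond reruns with free RNA subtracted or droplets rich in it left out, the part of other cells' RNA in the Müller-like ratios was not tested. Of the 7 genes with enough UMIs, 3 were at least 2-fold lower (Insig1, Fdft1 and Srebf2) and 2 at least 2-fold higher (Sqle and Cyp51), beside 15.9% and 22.7% of 5146 genes. The 819 and 1169 genes past 2-fold show how common such ratios are in this class.

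Srebf2, the member with most UMIs there, went from 284 to 125 CPM on 41 and 47 UMIs (log2 ratio -1.18, -1.82 to -0.54). Insig1 went from 90.1 to 32.0 CPM on only 13 and 12 UMIs (log2 ratio -1.49, -2.76 to -0.25). Fdft1 had 15 and 17 UMIs (log2 ratio -1.20, -2.29 to -0.09), of which 7 in the control came from 1 droplet. Sqle stood at 20.8 and 66.6 CPM on 3 and 25 UMIs and Cyp51 at 41.6 and 98.5 CPM on 6 and 37 UMIs, but both intervals held 0 (-0.03 to 4.05 and -0.01 to 2.78). Hmgcs1 stood at 125 and 115 CPM, Idi1 at 55.4 and 47.9 CPM, and Fdps had 5 and 6 UMIs. The median gene with at least 50 UMIs in each library was shifted by -0.47 in this class, and relative to it 1 of the 7 genes was still 2-fold lower. That gene was Insig1, at -1.02 with an interval that held 0 (-2.28 to 0.23). On the same scale Srebf2 was at -0.71 (-1.34 to -0.07). Sqle (2.15, 0.44 to 4.52) and Cyp51 (1.72, 0.46 to 3.25) then lay above 0 with their intervals. The 6 enzymes summed to 381 and 389 CPM, with a log2 ratio of 0.03 (-0.43 to 0.50).

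Cone-like droplets carried much rod RNA in the control, where the rod marker list summed to 93491 CPM and the cone list to 11167 CPM. In light damage the lists summed to 45358 and 16048 CPM. Control low-unspliced rods held the rod list at 119679 CPM. Whether the control droplets of this class are mostly cones was not tested. All 9 cone markers were detected in both libraries, but 6 abundant rod genes summed to 72676 CPM in control and 33410 CPM in light damage cone-like droplets, where control free RNA held them at 79953 CPM, and only 3 of 176 control against 58 of 94 light damage droplets had less than 50% of the free RNA share of those genes. In the finer clustering, cone clusters also parted by library, with 203 control and 53 light damage droplets in one led by Gsto1, Prss22 and Pglyrp1, and 4 and 51 in one led by Opn1mw, Arr3 and Gngt2. The part of this difference in the cone-like ratios was not tested. Of the 8 genes, 0 were at least 2-fold lower and 1, Fdft1, was at least 2-fold higher, beside 3.62% and 17.4% of 8459 genes. Fdft1 went from 17.4 CPM (8.70 to 31.2) to 38.2 CPM (28.0 to 50.8) on 11 and 47 UMIs (log2 ratio 1.13, 0.16 to 2.23). It was under 2-fold, with an interval that held 0, with a minimum of 1000 UMIs per droplet (0.95, -0.03 to 2.06), without doublet removal (0.82, -0.02 to 1.73) and with unspliced UMIs added (0.83, -0.07 to 1.83). Insig1 had 7 UMIs in the control and 23 in light damage (log2 ratio 0.75, -0.52 to 2.22). For the other 6 genes the log2 ratio lay between -0.66 (Fdps) and 0.21 (Srebf2), each with an interval that held 0.

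In low-unspliced rods none of the 8 genes passed 2-fold in either direction, beside 1.5% of 10139 genes at least 2-fold lower and 4.96% at least 2-fold higher. Their median log2 ratio was 0.19, against 0.18 for all genes. Here too the libraries differed in their clusters, since 1 cluster held 1642 of 2424 control and 359 of 1798 light damage droplets and another 29 and 469. With 39 to 618 UMIs per gene and library, the interval of the ratio was narrowest for Fdps and widest for Insig1. Hmgcs1 went from 25.2 CPM (21.9 to 28.9) to 33.5 CPM (29.2 to 38.2), with a log2 ratio of 0.41 (0.13 to 0.69). Fdps, which is most abundant in this class, went from 76.4 CPM to 64.7 CPM (58.6 to 71.1), with a log2 ratio of -0.24 (-0.42 to -0.06). Insig1 was low in both libraries, at 4.82 and 6.45 CPM, and the wide interval of its log2 ratio held 0 (0.42, -0.24 to 1.09).

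High-unspliced rods gave 1 of 8 genes at least 2-fold lower and 0 at least 2-fold higher, beside 4.2% and 9.6% of 12039 genes. Sqle was at 33.2 CPM (25.2 to 42.9) in the control and 16.035 CPM (13.7 to 18.6) in light damage, 2.07-fold lower (log2 ratio -1.05, -1.49 to -0.60). Hmgcs1, at the other end, was at 34.9 CPM (26.7 to 44.8) and 56.6 CPM (52.2 to 61.3), 1.62-fold higher (log2 ratio 0.70, 0.32 to 1.102). Most control droplets of this class (566 of 765) belonged to another cluster than most light damage droplets (1766 and 1034 of 3128 in a pair of clusters). The control cluster was led by Xist and Tsix, and the pair by Mir124a-1hg and Gm48237 and by Jun and Stom. The part of this difference in the ratios of high-unspliced rods was not tested. Unspliced UMIs were more frequent here: Srebf2 had 55 in the control and 394 in light damage (log2 ratio 0.31, -0.10 to 0.74) and Hmgcs1 20 and 166 (log2 ratio 0.52, -0.15 to 1.27), so neither unspliced ratio excluded 0. Insig1 had 0 unspliced UMIs in the control and 24 in light damage, where the class held 2215364 and 12039627 unspliced UMIs in all. Per 1000000 UMIs of the class, unspliced ones included, the exact upper limit in the control was 0.93, against 1.05 (0.67 to 1.56) in light damage. The log2 ratio had a lower limit of 0.06. The 6 enzymes summed to 212 and 205 CPM in high-unspliced and 209.9 and 214 CPM in low-unspliced rods, with log2 ratios of -0.05 (-0.21 to 0.11) and 0.03 (-0.08 to 0.13).

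Of the 15 other synthesis enzymes, 14 were compared in each rod class, and 1, the phosphomevalonate kinase gene Pmvk, was at least 2-fold higher in both. Over all genes, 4.96% were at least 2-fold higher in low-unspliced and 9.6% in high-unspliced rods. Pmvk had log2 ratios of 1.70 (1.55 to 1.86) in low-unspliced and 1.30 (0.99 to 1.62) in high-unspliced rods and 1.85 (1.17 to 2.61) in cone-like droplets. Free RNA held Pmvk at 81.0 CPM in the control and 216 CPM in light damage. It made up an estimated 1.07% and 0.58% of UMIs in low-unspliced rods and 3.34% and 1.12% in high-unspliced rods. In cone-like droplets it made up 0.93% and 0.50%. The part of free RNA in these ratios was not tested. In high-unspliced rods Nsdhl was at least 2-fold lower (log2 ratio -1.34, -2.18 to -0.43), beside 4.2% of all genes. In low-unspliced rods no enzyme of the list was, beside 1.5% of all genes. In Müller-like droplets 6 of the 15 were compared, with 1 at least 2-fold lower and 1, Acat2, at least 2-fold higher. This is near the 15.9% and 22.7% of all genes in that class. Acsl3, the most counted gene of the fatty acid list there, was lower on 393 and 230 UMIs, of which 1 droplet held 71 and 47 (log2 ratio -2.15, -2.39 to -1.91).

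The fatty acid list had a higher median than all genes in each photoreceptor class. In low-unspliced rods 3 of 10 genes compared were at least 2-fold higher (Acaca, Elovl6 and Fads2) and 0 lower. Over all genes 4.96% were higher and 1.5% lower, and the list's median was 0.72 against 0.18. Acaca, the acetyl-CoA carboxylase, had a log2 ratio of 1.19 (0.98 to 1.39) and the desaturase gene Fads2 one of 2.27 (1.19 to 3.51), while the interval of Elovl6 held 0. In cone-like droplets 3 of 8 were at least 2-fold higher (Acsl3, Acss2 and Elovl6), beside 17.4% of all genes. The list's median there was 0.75 against 0.26. Acsl3 had a log2 ratio of 1.40 (1.03 to 1.79) there, opposite in sign to those in RPE-like and Müller-like droplets, a difference that was not tested. In high-unspliced rods 1 of 10 was at least 2-fold higher (Fasn), near the 9.6% of all genes, with a median of 0.40 against 0.09. The isoprenoid branches had a median of 0.53 in that class, with 0 of 9 genes past 2-fold in either direction.

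The genes whose levels over the 10 values (5 classes in 2 libraries) were most like those of Insig1, by Pearson's r on log2(CPM + 10) among 8815 genes, were Lgr4 (0.97), Msrb3 (0.95), Pik3ip1 (0.94), Vgll4 (0.94) and Caskin1 (0.94). Of the chosen genes Hmgcs1 came nearest at rank 22 (r = 0.90), followed by Srebf2 at rank 147 (0.83), Fdft1 at 203 (0.82), Idi1 at 381 (0.78), Cyp51 at 1462 (0.56), Sqle at 1900 (0.49) and Fdps at 4798 (-0.10). The 10 values share libraries and depth, so r is a description of likeness only. Lgr4 stood at 76.7 CPM in control and 42.5 CPM in light damage RPE, and Pik3ip1 at 46.3 and 11.7 CPM.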

How the data were processed

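Per the labels, the 3′ 10x Genomics v3.1 libraries were counted with alevin-fry, and the submitters' processing notes name Cell Ranger 7.0.1, Salmon 1.10.1 and alevin 0.8.1. The authors deposited raw UMI counts of spliced, unspliced and ambiguous reads per barcode against mm10, with sense-strand reads only and no filter on droplets. IDs were named from GENCODE vM21 (32235 of 32285).

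Droplets were kept with at least 1464 (control) and 1614 (light damage) UMIs, the inflection points, and under 10% mitochondrial UMIs. As doublets, the droplets with the highest Scrublet scores were removed, at 0.8% for every 1000 droplets (114 and 276). Leiden clusters (resolution 1, 2000 genes, 50 components) took a cell type name when the marker score reached 0.5 and 3 or more markers were each seen in 10% of their droplets. Rods had to have 8 of 10 markers in 50% of droplets. Droplets of other classes needed at least 5 marker UMIs and 1.5 times those free RNA would give, which kept 43 of 204 light damage Müller-like droplets. These limits were set with values already known. Barcodes under 50 UMIs gave the free RNA profile, whose share was estimated from 6 rod genes or, in photoreceptors, 6 RPE genes.

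Intervals were exact: Poisson for CPM, Clopper-Pearson for shares and, for a log2 ratio, binomial given the sum of both counts. Precision rests on 690670 and 2306976 UMIs in the RPE-like droplets, and on 144347 and 375459 in the Müller-like ones. The ratio and its interval were tried on simulated Poisson counts, which hold no variation among droplets, mice or libraries. The genes and lists were chosen with earlier results of these data known. From each list, up to 3 genes per class by the interval's end nearest 0 are named, and the others were chosen after their values were seen. Clustering ran in scanpy 1.11.5 with leidenalg 0.10.2, and intervals came from scipy 1.17.1 under Python 3.11.15. Alternatives changed the droplet, doublet and mitochondrial filters, the clustering, the free RNA treatment, the scaling, the depth and the UMI minimum. Some genes counted in the lists are not reported here by name or drawn in the plots.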

Additional observations from a re-analysis of the deposited data

How the results depend on the processing

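The fall of Insig1 in RPE-like droplets kept its direction and its interval below 0 under every alternative run. Its log2 ratio lay between -2.93 and -2.71 over the alternatives that kept all RPE-like droplets together, and was -2.63 and -3.56 in the finer clusters led by Cox8b and by Sema3c. Of 8 genes, 4 were at least 2-fold lower there, and 2 (Insig1 and Sqle) when ratios were centred on the median gene (shift -0.11), since Hmgcs1 and Fdps lay just past 2-fold. The count was 3 without doublet removal, with thinning, with a minimum of 100 UMIs and without the droplet richest in the 8 genes. In Müller-like droplets the count of 3 became 1 with that centring, 0 when droplets were thinned to 1000 UMIs or a minimum of 100 UMIs was set (no gene then passed it), 1 without the droplet richest in the 8 genes, and 1 within the cluster led by Aqp4 alone, where 2 genes could be compared. In high-unspliced rods the count of 1 became 0 with a minimum of 1000 UMIs per droplet, with unspliced UMIs added, with thinning and with rods split at 35% unspliced UMIs. With that minimum of 1000 UMIs no light damage droplet was named Müller-like, so that class has no value there. The restrictions to 1 cluster and without the richest droplet were chosen after seeing the data. No log2 ratio of the 8 genes whose interval excluded 0 in the main results changed sign under an alternative run. Some ratios whose interval held 0 in the main results did change sign, in every class. In RPE-like droplets Srebf2 went to 0.25 with thinning and to 0.41 in the finer cluster led by Sema3c, where Fdft1 stood at 0.76. Hmgcs1 in Müller-like droplets reached 0.81. No paired analysis was possible because each condition is 1 library. Depth limits Müller-like droplets most, with 3 to 47 UMIs per gene and library.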
